A study of Mus musculus with 8 samples.

Results

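Hypoxia-inducible factors (HIFs) are transcription factors made of an oxygen-sensitive alpha subunit and a stable beta subunit. When oxygen is available, prolyl hydroxylases mark the alpha subunit, the VHL protein binds the mark and the subunit is degraded, so much of HIF control acts on protein rather than on mRNA. When oxygen is short, the alpha subunit persists, pairs with the beta subunit and turns on genes for blood vessel growth, pH control, collagen processing, mitochondrial turnover and metabolism. Expression of 35 genes of this pathway was examined among the 48709 genes of a count table from mouse lung tumors. They comprise 9 HIF regulators (*Hif1a*, *Epas1*, *Hif3a*, *Arnt*, *Vhl*, *Hif1an* and *Egln1*, *Egln2* and *Egln3*) and 26 hypoxia targets outside glycolysis, picked by gene symbol. All 35 were found in the table, and 34 passed the filter on low counts.

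The tumors arose in mice of 1 engineered line, denoted *K* in both group names, in which Cre recombinase starts tumor growth. A lentivirus carrying Cre, Cas9 and a guide RNA was delivered into the airways of both groups. The guide targeted *GFP* for *K-Ctrl* (4 tumors) and, for *K-Setd2KO* (4 tumors), *Setd2*, the enzyme that places trimethyl marks on histone H3 lysine 36. The mice were of a mixed B6J/129S4vJae background, the tumors were labelled as lung adenocarcinoma, with those of *K-Setd2KO* described as low-grade adenomas and controls selected to match in stage, both sexes were used, and only an upper limit of age at tumor initiation is stated. Age at harvest, time after infection and number of mice are not given for these tumors in the sources used here. The whole tumors were flash-frozen by the design text, whereas the extraction text speaks of cell lines, and the cells were not sorted.

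Total counts ranged from 5806599 to 21290402 per tumor. *Setd2* mRNA did not separate the groups (140.1 ± 8.81 CPM in *K-Ctrl*, compared with 136 ± 15.5 CPM in *K-Setd2KO*, SD, n = 4 each, edgeR adjusted p 0.824). A Cas9 cut need not change the amount of mRNA, so this level is no check of the labels. CPM denotes counts per 1e+06 counts of the TMM-scaled library. Alveolar type 2 genes summed to 46337 to 68819 CPM in *K-Ctrl* and 55079 to 78783 CPM in *K-Setd2KO* and were abundant in every tumor of this lung series, with *Sftpb* called higher and *Napsa* called lower among the 9. Markers of other cells were also detected, and 4 of 5 pan-leukocyte, 5 of 6 macrophage, 2 of 8 endothelial and 2 of 6 proliferation genes were called lower in *K-Setd2KO*. So were 1 of 6 alveolar type 1 and 1 of 6 fibroblast genes, against 7.74% of all tested genes. Club cell genes, with 0 of 3 called, summed to 559 to 2852 CPM in *K-Ctrl* and 221 to 975 CPM in *K-Setd2KO*. Of the epithelial markers, 2 of 6 (*Epcam* and *Krt18*) were called higher, against 4.97% of all tested genes. The 6 summed to 2127, 1909, 1972 and 2919.9 CPM in *K-Ctrl*, against 2679, 3205, 2610.5 and 2816 CPM in *K-Setd2KO*, and their part in the genes called higher below was not tested. By *Xist* and Y-linked genes, 1 control and 3 *K-Setd2KO* tumors were female. Genes of chromosome 6 shifted upward together in replicates 1, 3 and 4 of *K-Setd2KO*.

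Over the whole list, 6 of the 34 tested genes (17.6%) differed between the genotypes at an edgeR adjusted p under 0.05, against 12.7% of the 14929 genes tested. Genes called higher in *K-Setd2KO* numbered 5 (*Ankrd37*, *Kdm3a*, *Ak4*, *Bhlhe40* and *Egln3*), where 4.97% of all tested genes were called higher. Only *Plod1* was called lower, where 7.74% of all tested genes were. The median log2 fold change was 0.15 over the 34 genes and 0.029 over all genes tested, and 24 of 34 values were above 0. Without *K-Ctrl* replicate 1 the median was 0.32, with sex in the fit it was 0.30, and without *K-Ctrl* replicate 3 the genes called higher numbered 2. In that last fit, 224 of 14993 genes tested were called higher, against 742 of 14929 with all 8 tumors. The regulators had a median of 0.16 with 1 of 9 called, and the targets one of 0.12 with 5 of 25 called. Both groups of 4 tumors lay fully apart for 6 of the 34 genes, against 20.3% of all tested genes, with 5 higher (9.06% of all tested genes) and 1 lower (11.2% of all tested genes). Values ran from −1.43 for *Plod2* to 3.35 for *Ankrd37*.

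**Figure D1:**
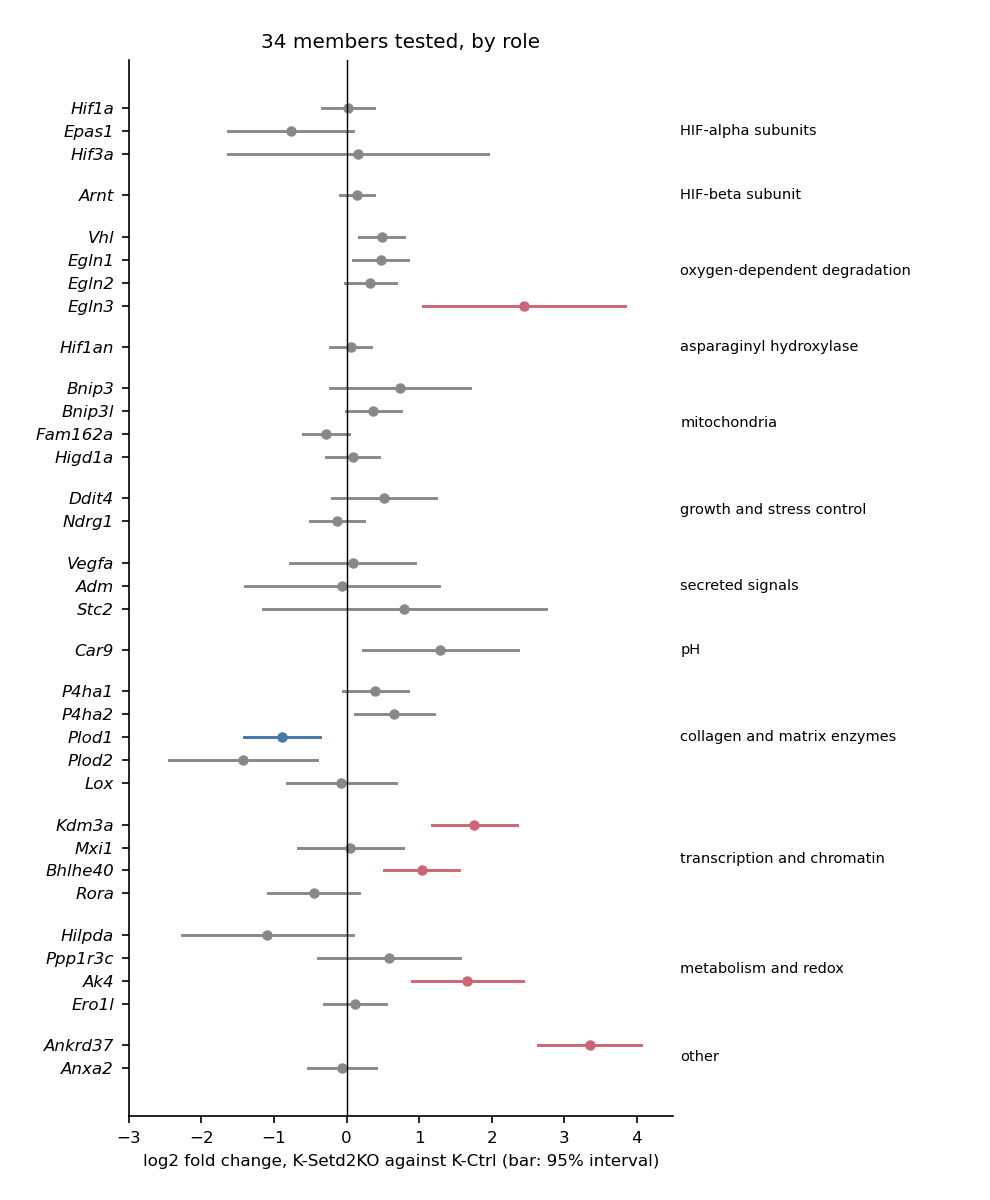
Log2 fold change of *K-Setd2KO* against *K-Ctrl* for the 34 genes tested, grouped by role, with points for the edgeR estimate and bars for the 95% interval (4 tumors in each group). Red genes were called higher, the blue gene (*Plod1*) lower and gray genes were not called. *Ankrd37* lies farthest to the right at 3.35.

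HIF dimers recognise the short core sequences ACGTG and GCGTG, so the DNA just upstream of the start sites was searched for both, on either strand. RefSeq promoter sequences (build GRCm38.p6) were matched by symbol for 29 of the 35 genes (not for *Epas1*, *Bnip3l*, *Ndrg1*, *Plod2*, *Lox* and *Bhlhe40*), and the 250 bases before each annotated start site were used. A match was present for 26 of the 29 genes (89.7%), counting every annotated start site. The share was 59.8% over the 10923 tested genes with a promoter sequence and 41.5% over all 27025 genes with one. Promoters of the listed genes had a median GC content of 62.0%, against 59.6% for those of tested genes, and both cores contain CG. A match was found for 5 of 5 called genes with a sequence and for 21 of 23 genes that were not called. The windows of the called genes are printed below 5′ to 3′ on the strand of the gene, in order of p-value and with each core on either strand in capitals (its reverse complement reads CACGT or CACGC), to show where the cores lie in the genes that changed.
Ankrd37: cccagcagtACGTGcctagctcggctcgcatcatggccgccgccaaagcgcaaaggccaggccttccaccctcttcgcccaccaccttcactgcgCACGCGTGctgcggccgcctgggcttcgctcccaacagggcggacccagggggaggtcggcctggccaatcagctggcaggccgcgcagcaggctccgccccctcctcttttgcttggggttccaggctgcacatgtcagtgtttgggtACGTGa
Kdm3a: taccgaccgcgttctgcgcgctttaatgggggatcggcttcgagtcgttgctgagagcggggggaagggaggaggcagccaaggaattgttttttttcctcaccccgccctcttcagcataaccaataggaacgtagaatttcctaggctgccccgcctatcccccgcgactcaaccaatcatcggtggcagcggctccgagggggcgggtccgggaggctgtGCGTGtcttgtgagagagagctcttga
Ak4: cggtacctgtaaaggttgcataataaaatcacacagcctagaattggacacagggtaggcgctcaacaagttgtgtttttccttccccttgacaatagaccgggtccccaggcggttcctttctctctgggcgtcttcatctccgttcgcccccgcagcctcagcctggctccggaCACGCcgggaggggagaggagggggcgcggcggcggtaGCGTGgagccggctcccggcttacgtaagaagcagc
Egln3: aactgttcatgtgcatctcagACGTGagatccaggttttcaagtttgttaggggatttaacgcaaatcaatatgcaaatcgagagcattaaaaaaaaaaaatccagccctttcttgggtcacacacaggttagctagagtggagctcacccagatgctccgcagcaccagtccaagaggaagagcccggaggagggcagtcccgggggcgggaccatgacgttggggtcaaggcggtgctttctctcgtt
Plod1: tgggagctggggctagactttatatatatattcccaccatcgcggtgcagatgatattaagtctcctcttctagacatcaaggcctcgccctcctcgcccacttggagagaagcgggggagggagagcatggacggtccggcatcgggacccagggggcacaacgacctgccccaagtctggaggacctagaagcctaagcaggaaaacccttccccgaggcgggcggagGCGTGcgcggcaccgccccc
These windows lie at chr8:45999851-46000100 for *Ankrd37*, chr6:71632918-71633167 for *Kdm3a*, chr4:101419039-101419288 for *Ak4*, chr12:54203875-54204124 for *Egln3* and chr4:147936777-147937026 for *Plod1*. The *Ankrd37* window lies before the RefSeq start site but wholly inside the gene as counted (45996902 to 46005707), so it is not upstream of that span. It held 4 matches, of which 2 overlap each other on opposite strands, and the match closest to the start site began 6 bases before it. *Kdm3a* held 1 match at 27 bases and *Plod1* 1 at 20 bases before the start site. *Egln3* held 1 match at 229 bases and *Ak4* 2 matches, at 36 and 74 bases. For *Kdm3a*, with 3 annotated start sites, and *Ak4*, with 4, the window of the first site listed with a match is shown. None of the 5 windows printed held the palindrome CACGTG, although the window of another annotated start site of *Ak4* held 1. This palindrome contains ACGTG on both strands and was present in 6.02% of all 32851 promoter windows. A match describes these letters and does not show binding.

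Among the alpha subunits, none was called. *Hif1a* (ENSMUSG00000021109.13, chromosome 12, 73901375 to 73947530, plus strand), which encodes the widely expressed HIF-1 alpha, stood at 176, 257, 229 and 234 CPM in *K-Ctrl* replicates 1 to 4, compared with 249, 191, 205 and 263 CPM in *K-Setd2KO* replicates 1 to 4. The groups overlapped over most of their range. The log2 fold change was 0.020 (95% interval −0.33 to 0.37, edgeR adjusted p 0.946). The sign of this difference depended on the scaling.

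*Epas1* (ENSMUSG00000024140.9, chromosome 17, 86753907 to 86833410, plus strand) encodes HIF-2 alpha, known for its abundance in vascular endothelium and lung. Its level was 1841, 492, 1214 and 595 CPM in the control tumors and 597, 671, 637 and 523 CPM in the *K-Setd2KO* tumors. Replicates 1 and 3 of *K-Ctrl* lay above every other tumor, while the other 2 controls fell within or below the *K-Setd2KO* range. The log2 fold change was −0.77 (95% interval −1.63 to 0.093, edgeR adjusted p 0.213). It was −0.34 without *K-Ctrl* replicate 1 and −0.33 with sex in the fit. The 8 endothelial marker genes, all of them detected, summed to 1972, 537, 1034 and 648 CPM in the same control tumors and 551, 426, 303 and 207 CPM in *K-Setd2KO*, so the controls with the most *Epas1* also held the most endothelial mRNA. The part of endothelial cells in the *Epas1* difference was not tested, and in bulk tumors fewer cells of a type and less RNA per cell cannot be told apart. *Hif3a*, whose product can oppose the other HIFs, varied widely at 18.2, 2.1, 6.65 and 1.61 CPM and 15.4, 3.06, 4.25 and 9.41 CPM, in *K-Ctrl* and *K-Setd2KO* respectively, with replicate 1 highest in each group and the groups overlapping (log2 fold change 0.16, 95% interval −1.63 to 1.95, edgeR adjusted p 0.914).

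**Figure D2:**
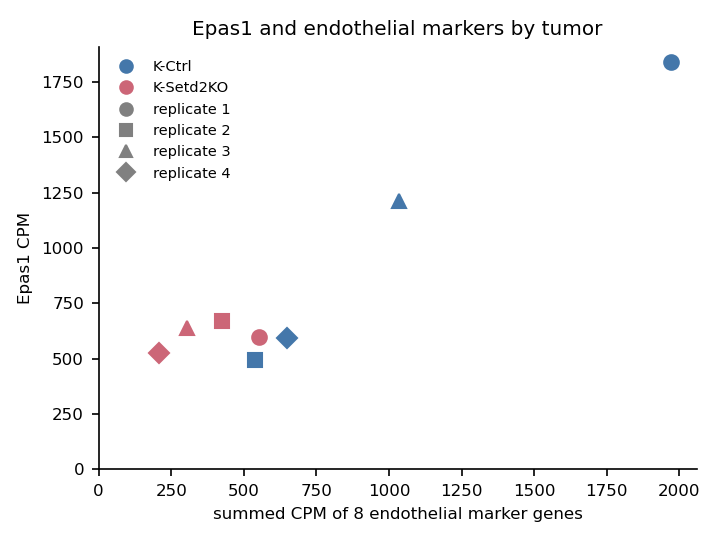
*Epas1* CPM (vertical axis) against the summed CPM of 8 endothelial marker genes (horizontal axis) in each of the 8 tumors, with color for the genotype and symbol for the replicate number. *K-Ctrl* replicates 1 and 3, at 1841 and 1214 CPM of *Epas1*, stand above and to the right of the other 6 tumors.

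Levels of different genes were compared as CPM per kilobase of exon. *Epas1* was the most abundant regulator in both groups, at 195 ± 118 in *K-Ctrl*, compared with 114 ± 12.0 in *K-Setd2KO* (SD, n = 4 each). *Hif1a* followed in *K-Ctrl* at 38.0 ± 5.82, then *Egln1* at 28.5 ± 3.59 and *Egln2* at 22.4 ± 3.09. *Egln1* (39.5 ± 8.19) and *Hif1a* (38.5 ± 5.84) differed by less than their spread in *K-Setd2KO*. *Arnt*, *Vhl* and *Hif1an* lay between 8.31 and 15.0 in both groups, and *Hif3a* and *Egln3* were lowest. Every tumor held more *Epas1* than *Hif1a*. The log2 ratio of *Epas1* to *Hif1a* was 3.54, 1.09, 2.55 and 1.497 across the controls, against 1.41, 1.96, 1.78 and 1.14 across *K-Setd2KO*, a difference of −0.59 that did not exceed the spread (two-sided exact permutation p 0.4, adjusted p 0.6 over 7 ratios of paralogs).

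*Arnt*, the shared beta subunit, stood at 96.0, 82.9, 84.9 and 94.6 CPM in *K-Ctrl*, compared with 92.4, 101, 99.0 and 104 CPM in *K-Setd2KO* (log2 fold change 0.14, edgeR adjusted p 0.377). The groups overlapped, with 3 of the 4 *K-Setd2KO* tumors above every control. *Hif1an*, the asparaginyl hydroxylase that blocks coactivator binding, was at 58.7, 53.8, 51.7 and 55.4 CPM, compared with 46.4, 62.3, 61.8 and 58.2 CPM, again with overlap and with a log2 fold change of 0.058 (95% interval −0.22 to 0.34).

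The 4 genes of oxygen-dependent degradation all had values above 0, with 1 called. *Egln3* (ENSMUSG00000035105.5, chromosome 12, 54178981 to 54203860, minus strand) encodes the prolyl hydroxylase PHD3 and is itself induced by HIF. It stood at 0.923, 3.36, 0.923 and 1.16 CPM in *K-Ctrl*, compared with 7.65, 2.75, 8.21 and 16.1 CPM in *K-Setd2KO*. These levels rest on 13 to 40 counts per control tumor and 36 to 149 per *K-Setd2KO* tumor. Replicates 1, 3 and 4 of *K-Setd2KO* exceeded every control, whereas replicate 2 lay below *K-Ctrl* replicate 2. The level rose 5.45-fold (log2 fold change 2.45 with an SE of 0.617, edgeR adjusted p 0.0339). *K-Ctrl* replicate 2 was the 1 female control, and with sex in the fit the log2 fold change was 2.20 (edgeR adjusted p 0.0588). Leaving out 1 tumor ended the call in 6 of 8 fits, with values from 1.97 without *K-Setd2KO* replicate 4 to 3.09, and it lasted without *K-Ctrl* replicate 2 and without *K-Setd2KO* replicate 2. Over all genes, the 6 fits made 763 to 1963 calls and the other 2 made 1126 and 2058, against 1897 with all 8 tumors.

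*Egln1*, the main HIF prolyl hydroxylase PHD2, stood at 108, 102, 115 and 84.9 CPM in *K-Ctrl*, compared with 128, 178, 152 and 110.1 CPM in *K-Setd2KO*, with replicates 1 to 3 of *K-Setd2KO* above every control and replicate 4 among them. Its log2 fold change of 0.47 had an unadjusted p of 0.0196 and an edgeR adjusted p of 0.0951. *Egln2* (PHD1) was at 65.1, 50.4, 64.3 and 70.8 CPM, compared with 79.8, 96.2, 73.0 and 65.0 CPM, and overlapped between the groups (log2 fold change 0.33, edgeR adjusted p 0.194). The log2 ratio of *Egln3* to *Egln1* differed by 1.85 between the genotypes (two-sided exact permutation p 0.0571, adjusted p 0.4), and that of *Egln2* to *Egln1* by −0.13 (two-sided exact permutation p 0.571, adjusted p 0.667).

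*Vhl* (ENSMUSG00000033933.13, chromosome 6, 113623959 to 113631633, plus strand), the substrate receptor of the ligase that degrades the alpha subunits, stood at 33.3, 32.9, 30.4 and 32.1 CPM in *K-Ctrl*, compared with 49.0, 35.3, 44.0 and 51.7 CPM in *K-Setd2KO*. The groups did not overlap, but *Vhl* just missed the threshold (log2 fold change 0.48 with an SE of 0.14, edgeR adjusted p 0.0523). It was called by DESeq2 (adjusted p 0.0167), which called 21.5% of all tested genes, against 12.7% with edgeR. *Vhl* lies on chromosome 6, and its 3 higher *K-Setd2KO* tumors were those with the raised chromosome. The median over 839 chromosome 6 genes, as log2 difference from the mean of the controls, was −0.035, 0.023, 0.011 and −0.018 in *K-Ctrl*, against 0.33, −0.034, 0.32 and 0.38 in *K-Setd2KO*. With this shift taken out of the fit, the log2 fold change of *Vhl* was 0.21 (edgeR adjusted p 0.218).

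Targets that act on transcription and chromatin included 2 called genes, both on chromosome 6. *Kdm3a* (ENSMUSG00000053470.13, chromosome 6, 71588972 to 71632990, minus strand), an oxygen-dependent demethylase of histone H3 lysine 9, stood at 62.0, 53.5, 55.7 and 49.98 CPM in *K-Ctrl*, compared with 172, 109, 288 and 181 CPM in *K-Setd2KO*. The groups did not overlap, and the *K-Setd2KO* tumors spread much more widely than the controls. The level rose 3.39-fold (log2 fold change 1.76 with an SE of 0.26, edgeR adjusted p 0.00738), and each of the 8 fits that left out 1 tumor kept the call. The lowest *K-Setd2KO* value was that of replicate 2, the tumor without the chromosome 6 shift, and it was still above the highest control. With the shift removed the log2 fold change was 1.47 (edgeR adjusted p 0.00717).

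*Bhlhe40* (ENSMUSG00000030103.11, chromosome 6, 108660629 to 108666925, plus strand), a repressor that also takes part in the circadian clock, stood at 148, 209, 204 and 239 CPM in *K-Ctrl*, compared with 328, 468, 549 and 295 CPM in *K-Setd2KO*, again without overlap. It rose 2.05-fold (log2 fold change 1.03 with an SE of 0.228, edgeR adjusted p 0.0217). Replicate 2 of *K-Setd2KO*, with no chromosome 6 shift, held the second highest value. The call was lost with the shift removed (log2 fold change 0.81, edgeR adjusted p 0.0744) and, with edgeR adjusted p-values of 0.0501 to 0.0618, in 4 of the 8 fits without 1 tumor (*K-Ctrl* replicate 1, 2 or 3 or *K-Setd2KO* replicate 3). Those 4 fits made 763 to 1126 calls over all genes, against 1897 with all 8 tumors. *Mxi1*, an antagonist of Myc, overlapped at 56.7, 34.7, 60.3 and 32.5 CPM and 29.2, 54.2, 72.8 and 35.3 CPM, and the sign of its log2 fold change of 0.055 was not stable. *Rora*, a nuclear receptor, gave −0.45 (edgeR adjusted p 0.313).

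**Figure D3:**
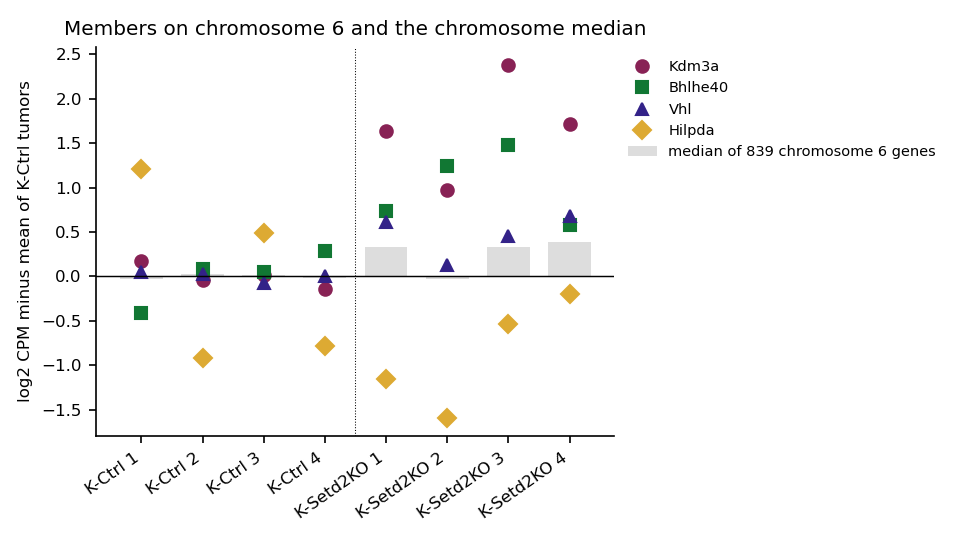
Log2 CPM minus the mean of the 4 *K-Ctrl* tumors for the 4 listed genes on chromosome 6 (symbols) and for the median of 839 tested chromosome 6 genes (gray bars), in each tumor. The bars reach 0.32 to 0.38 in *K-Setd2KO* replicates 1, 3 and 4 and −0.034 in replicate 2, where *Kdm3a* and *Bhlhe40* were raised and *Vhl* little.

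*Ankrd37* (ENSMUSG00000050914.16, chromosome 8, 45996902 to 46005707, minus strand), which encodes a small ankyrin-repeat protein and is a direct HIF-1 target, showed the largest change on the list. It stood at 8.31, 6.39, 7.29 and 4.46 CPM in *K-Ctrl*, compared with 65.0, 74.7, 94.9 and 36.3 CPM in *K-Setd2KO*, so that every *K-Setd2KO* tumor lay far above every control. The rise was 10.2-fold (log2 fold change 3.35, 95% interval 2.64 to 4.06, edgeR adjusted p 0.00306), the call stayed in all 8 fits without 1 tumor, and by p-value it ranked 6th of the 14929 genes. In exons it shares 57 bases with *Ufsp2* and 349 (22.7% of its own) with *Lrp2bp*, both on the opposite strand. *Ufsp2* was at 35.5 ± 1.96 and 37.2 ± 3.12 CPM, and *Lrp2bp* at 1.69 ± 0.645 and 3.45 ± 1.77 CPM (SD, n = 4 each), both not called. In all, 12 of the 35 genes share exon bases with another gene. Whether counting used the read strand is not given in the sources used here.

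Of the metabolic and redox targets, *Ak4* (ENSMUSG00000028527.18, chromosome 4, 101419277 to 101466995, plus strand), an adenylate kinase of the mitochondrial matrix, was called. Its low level of 2.89, 1.85, 1.99 and 1.07 CPM in *K-Ctrl*, from 12 to 47 counts, became 7.24, 7.04, 5.81 and 4.79 CPM in *K-Setd2KO*, from 28 to 141 counts. The groups did not overlap, and the rise was 3.17-fold (log2 fold change 1.67 with an SE of 0.339, edgeR adjusted p 0.0165). The call was lost without *K-Ctrl* replicate 3 (log2 fold change 1.67, edgeR adjusted p 0.0534).

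*Hilpda*, a lipid droplet protein also on chromosome 6, was at 24.0, 5.38, 14.4 and 5.89 CPM and 4.52, 3.29, 7.01 and 8.9 CPM, with *K-Ctrl* replicates 1 and 3 above all other tumors (log2 fold change −1.09, edgeR adjusted p 0.199). The value was −0.56 without *K-Ctrl* replicate 1 and −0.54 with sex in the fit. Those 2 controls also had the highest summed endothelial and, for replicate 3, macrophage markers, which stood at 1018, 1039.7, 1685 and 536 CPM in *K-Ctrl*, against 315, 335, 242 and 184 CPM in *K-Setd2KO*. Their part in the *Hilpda* values was not tested. *Ppp1r3c*, a glycogen-targeting subunit of protein phosphatase 1, gave 0.59 and *Ero1l*, an oxidase of disulfide formation, 0.12 (edgeR adjusted p 0.399 and 0.719).

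**Figure D4:**
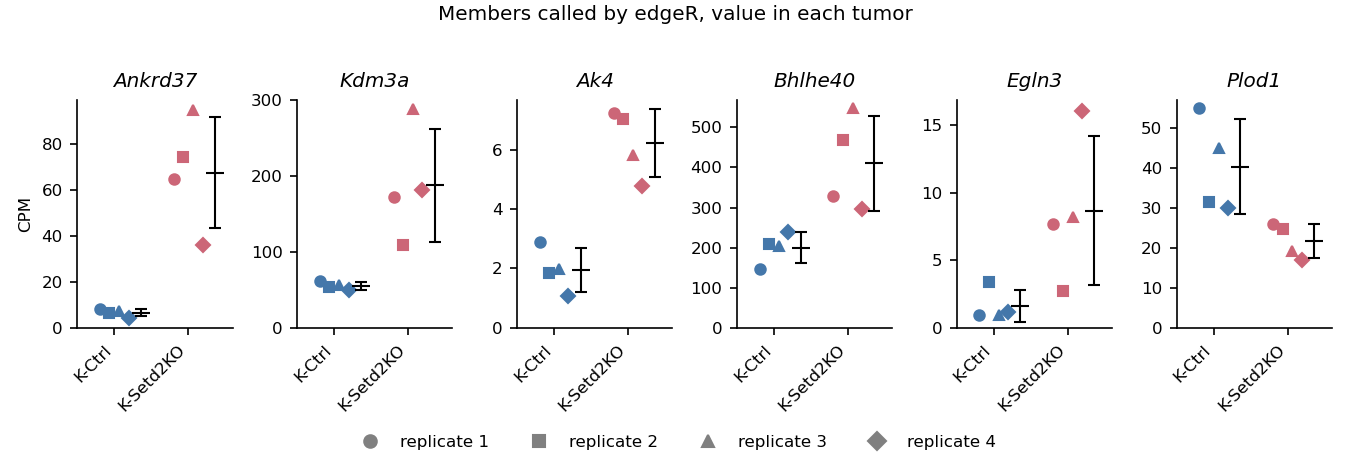
CPM in each tumor for the 6 genes called by edgeR, with a linear axis from 0 that differs between panels, symbols for replicates 1 to 4 and black bars for the mean ± SD (n = 4). The groups are apart for every gene but *Egln3*, where *K-Setd2KO* replicate 2 at 2.75 CPM lies below *K-Ctrl* replicate 2 at 3.36 CPM.

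Of 5 enzymes of collagen and matrix processing, 1 was called. *Plod1* (ENSMUSG00000019055.15, chromosome 4, 147909753 to 147936767, minus strand), a lysyl hydroxylase of procollagen, fell from 55.0, 31.3, 44.9 and 29.9 CPM in *K-Ctrl* to 25.9, 24.6, 19.3 and 16.9 CPM in *K-Setd2KO*. The groups did not overlap (log2 fold change −0.89 with an SE of 0.232, edgeR adjusted p 0.0374). With sex in the fit the log2 fold change was −0.82 (edgeR adjusted p 0.127). Values without 1 tumor ran from −1.01 to −0.71, and 5 of these 8 fits lost the call (edgeR adjusted p up to 0.101 without *K-Ctrl* replicate 3, also lost without *K-Ctrl* replicate 1 or *K-Setd2KO* replicate 1, 3 or 4). Those 5 fits made 763 to 1411 calls over all genes, against 1897 with all 8 tumors. *Plod2*, the paralog of *Plod1*, stood at 74.7, 26.1, 41.6 and 17.3 CPM and 14.9, 8.41, 16.0 and 20.7 CPM (log2 fold change −1.43, edgeR adjusted p 0.0688). DESeq2, with 21.5% of all tested genes called, called *Plod2* (adjusted p 0.00984). *K-Ctrl* replicate 1 held the most *Plod2*, and without it the log2 fold change was −0.93, while without *K-Ctrl* replicate 4 the call was made (log2 fold change −1.67, edgeR adjusted p 0.0311). Fibroblast markers, from cells that make collagen, summed to 866, 801, 497 and 1121 CPM in *K-Ctrl*, against 583, 333, 141 and 558 CPM in *K-Setd2KO*, and 1 of 6 was called lower. The endothelial sums given with *Epas1* had a lower mean in *K-Setd2KO* as well, with 1 tumor of overlap between the groups. The part of either cell type in the *Plod1* and *Plod2* values was not tested.

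Neither prolyl 4-hydroxylase subunit was called. *P4ha1* was at 201, 164, 220.0 and 198 CPM in *K-Ctrl*, compared with 317, 249, 166 and 299 CPM in *K-Setd2KO* (log2 fold change 0.40, edgeR adjusted p 0.218). *P4ha2* was at 73.8, 50.2, 65.1 and 67.9 CPM and 97.3, 86.2, 154 and 67.4 CPM (log2 fold change 0.66, edgeR adjusted p 0.106), and with sex in the fit it passed the threshold (log2 fold change 0.95, edgeR adjusted p 0.0186). *K-Setd2KO* replicate 3 had the most *P4ha2* and the least *P4ha1* of its group, and without it the *P4ha2* value was 0.39. *Lox*, which crosslinks collagen outside the cell, did not separate the groups (−0.070, edgeR adjusted p 0.91). The ratios of *P4ha1* to *P4ha2* and of *Plod2* to *Plod1* differed by −0.24 and −0.40 on the log2 scale (two-sided exact permutation p 0.771 and 0.343, adjusted p 0.771 and 0.6).

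Mitochondrial targets were not called. *Bnip3*, a receptor for mitophagy and a textbook HIF-1 target, was at 47.1, 41.2, 47.5 and 20.6 CPM in *K-Ctrl*, compared with 45.4, 74.9, 113 and 27.2 CPM in *K-Setd2KO*. Replicates 2 and 3 of *K-Setd2KO* exceeded every control, and replicates 1 and 4 did not. The log2 fold change was 0.74 (95% interval −0.23 to 1.70, edgeR adjusted p 0.281), and 0.34 without *K-Setd2KO* replicate 3. The related *Bnip3l* was likewise high in replicates 2 and 3, with 209, 289.7, 289 and 196 CPM in *K-Setd2KO* against 203, 189, 212 and 157 CPM in *K-Ctrl* (log2 fold change 0.37, edgeR adjusted p 0.176), and the log2 ratio of the pair differed by 0.26 (two-sided exact permutation p 0.429, adjusted p 0.6). *Fam162a* gave −0.29 and *Higd1a*, which protects the respiratory chain, 0.084 (edgeR adjusted p 0.212 and 0.769). Removing a trend with gene length took *Fam162a*, the shortest gene of the list at 635 bases of exon, past the threshold at −0.41 (edgeR adjusted p 0.0482).

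Secreted signals likewise did not separate the genotypes. *Vegfa*, the principal angiogenic factor induced by HIF, was abundant at 774, 378, 625 and 403 CPM in *K-Ctrl*, compared with 360.0, 888, 760.3 and 306 CPM in *K-Setd2KO*. Replicates 2 and 3 of *K-Setd2KO* and replicates 1 and 3 of *K-Ctrl* were high and the other 4 tumors low, so the spread lay within the groups (log2 fold change 0.087, 95% interval −0.78 to 0.95, edgeR adjusted p 0.903). *Stc2*, a secreted glycoprotein, reached 9.1 CPM in *K-Ctrl* replicate 4 and 13.6 CPM in *K-Setd2KO* replicate 2, with the other 6 tumors between 0.646 and 3.88 CPM (log2 fold change 0.80, edgeR adjusted p 0.577, and −0.15 without that *K-Setd2KO* tumor). *Adm*, the vasodilator adrenomedullin, was low in every tumor, at 4 to 48 counts, and the groups overlapped (log2 fold change −0.061, 95% interval −1.40 to 1.28, edgeR adjusted p 0.956).

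Carbonic anhydrases, which buffer the pH of hypoxic tumors, were scarce. *Car9*, among the most specific HIF-1 targets, was at 1.35, 1.68, 2.12 and 0.982 CPM in *K-Ctrl*, compared with 2.72, 1.91, 3.51 and 7.36 CPM in *K-Setd2KO*, and replicate 2 of *K-Setd2KO* lay among the controls (log2 fold change 1.29 with an SE of 0.474, edgeR adjusted p 0.104). It shares 214 exon bases with the antisense gene *Gm12454*, at 2.94 ± 0.643 and 5.14 ± 1.28 CPM (SD, n = 4 each). *Car12* had at most 3 counts in any tumor and was not tested. Without the TMM factor, a limit of 3 counts corresponds to 0.141 CPM at the highest depth and to 0.517 CPM at the lowest. *Car12* was therefore not detectable as different at this depth, and the ratio of *Car9* to *Car12* rests on these low counts (log2 difference 0.87, two-sided exact permutation p 0.314, adjusted p 0.6).

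Of the remaining targets, *Ddit4*, which restrains mTORC1 under stress, stood at 27.5, 25.8, 24.0 and 27.0 CPM in *K-Ctrl*, compared with 31.9, 67.8, 21.6 and 27.9 CPM in *K-Setd2KO*. Only replicate 2 of *K-Setd2KO* departed from the others, and without it the log2 fold change fell from 0.52 to 0.054. *Ndrg1*, often used as a hypoxia marker, gave −0.13 (95% interval −0.50 to 0.24, edgeR adjusted p 0.646). *Anxa2*, a membrane-binding annexin of high abundance, gave −0.062 (95% interval −0.52 to 0.40, edgeR adjusted p 0.868).

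The *K-Setd2KO* tumors differed among themselves in which targets were high. The highest value within the group fell to replicate 1 for 7 of 34 genes, replicate 2 for 10, replicate 3 for 7 and replicate 4 for 10. Among the controls it fell to replicate 1 for 17 genes, replicate 2 for 6, replicate 3 for 7 and replicate 4 for 4. The matching counts over all tested genes are not given here, so neither split can be called particular to the list. *Vegfa*, *Bnip3* and *Mxi1* were high in replicates 2 and 3, *Ddit4* and *Stc2* in replicate 2, *Kdm3a*, *Ankrd37* and *P4ha2* in replicate 3, and *Egln3* and *Car9* in replicate 4. The coefficient of variation between tumors was larger in *K-Setd2KO* than in *K-Ctrl* for 21 of 34 genes, with medians of 31.4% and 20.5%. Over all tested genes it was larger in *K-Setd2KO* for 65.9%, with medians of 24.5% and 18.2%, so a wider spread in *K-Setd2KO* was general. As a description of whole tumors, the median log2 difference from the control mean over the 34 genes was 0.14, −0.021, 0.089 and −0.26 in *K-Ctrl*, against 0.29, 0.18, 0.20 and 0.12 in *K-Setd2KO*. *K-Setd2KO* replicate 4, the shallowest library, lay within the control range on this measure.

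Further genes of the pathway were taken from lists written from general knowledge. Of 18 genes of the HIF machinery (coactivators, the VHL ligase, chaperones), 0 were called by edgeR in either direction, against 12.7% of all tested genes, with 2 at an unadjusted p under 0.05 (4464 of all 14929). DESeq2 called 1 of the 18 higher, and 1327 of all 14929 genes. The groups were fully apart for 4 of the 18, all higher (*Cited2*, *Crebbp*, *Elob* and *Ncoa1*), against 9.06% of all tested genes. The lowest edgeR p belonged to *Cited2*, a HIF-induced competitor for the coactivators, at 93.7, 134, 132 and 104 CPM and 143, 143, 195 and 199.9 CPM without overlap (log2 fold change 0.55, adjusted p 0.0656). Of 43 tested genes among 45 further hypoxia targets, 6 were called higher and 1 lower (together 16.3%, against 12.7% of all tested genes, 4.97% higher and 7.74% lower), the groups were fully apart for 9 higher and 3 lower (9.06% and 11.2% of all tested genes), and the median log2 fold change was 0.099.

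The higher genes of that list, each with its log2 fold change and then its edgeR adjusted p, were *Zfp395*, a zinc finger factor (1.12, 0.00718), *Hmox1*, the heme-degrading oxygenase (1.14, 0.0104), *Gys1*, a glycogen synthase (0.75, 0.013), *Mif*, a cytokine (0.70, 0.0131), *Trf*, the iron carrier transferrin (2.17, 0.0268), and *Mt1*, a metallothionein (1.18, 0.0376). *Trf* changed most of these, from 19.02, 44.96, 53.0 and 15.4 CPM in *K-Ctrl* to 237, 66.4, 112 and 180.1 CPM in *K-Setd2KO*. *Trf* shares 2108 exon bases (63.5% of its own) with *Gm20425* on the same strand, and *Gys1* shares 310 with *Ruvbl2* on the opposite strand, so the values of both are uncertain. *Cxcr4*, a chemokine receptor that leukocytes also carry, was lower (log2 fold change −1.77, edgeR adjusted p 0.00791), from 50.7, 43.3, 29.5 and 21.1 CPM to 12.2, 9.1, 10.8 and 10.3 CPM. The 5 pan-leukocyte markers summed to 417 to 836 CPM in *K-Ctrl* and 145 to 199.8 CPM in *K-Setd2KO* over the same tumors, and their part in the *Cxcr4* difference was not tested. *Angptl4*, a lipase inhibitor, did not overlap between the groups but missed the threshold (log2 fold change −1.67, edgeR adjusted p 0.0519).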

How the data were processed

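Poly(A) mRNA of 8 mouse lung tumors was sequenced as paired ends with a strand-aware kit. For these tumors, raw counts per gene were deposited by the authors in 1 table, without normalization. CPM, as computed here, is the count per 1e+06 of the library total times its TMM factor. The submitters' processing notes name STAR 2.5.2b, featureCounts 1.5.0-p1 and build GRCm38.p4, and the annotation release and strand setting are not given in the sources used here. Symbols and exon overlaps came from GENCODE M21 (GRCm38), which matched 48349 of 48709 identifiers (99.3%). Coordinates are 1-based and those of the deposited table.

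Genotypes were compared in R 4.3.3 with edgeR 4.0.16 (filterByExpr, TMM factors, robust quasi-likelihood fit, genotype as the only term). P-values were adjusted by Benjamini-Hochberg across 14929 genes, with calls at an adjusted p of 0.05. The SE was obtained from the quasi-likelihood F statistic (size of the log2 fold change over the root of F). Log2 CPM used a prior count of 2. DESeq2 1.42.0, the study's tool, and limma voom 3.58.1 were alternatives. Scripts were tested on simulated data. Ratios of paralogs, in log2 CPM per kilobase, were compared by two-sided exact permutation over the 70 assignments of tumors, whose smallest p is 0.0286. The labels do not say whether tumors came from separate mice, so p-values measure the spread between these tumors.

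Genes in the list, and the further lists, were chosen with earlier results of these data known. All 35 are named, with values in every tumor for called genes and for regulators, and for others where a statement rests on them. Promoters were printed for called genes with a match, at most 5. The removal of the chromosome 6 shift was added after the data were seen. Replicate numbers were not used to pair the tumors in the main fit. The engineered allele that both groups carry is not reported here.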

Additional observations from a re-analysis of the deposited data

Results flagged for a closer look

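Listed here are tumors that stood apart from the other 3 of their genotype, judged by their distance to the closest one relative to the whole range. Of 84 groups of 4 values examined (35 genes and 7 ratios in 2 genotypes), 5 held such a tumor, and chance gives 4.2. *Egln3* was at 3.36 CPM in *K-Ctrl* replicate 2, the female control, with the other controls at 0.923, 0.923 and 1.16 CPM. *Stc2* was at 9.1 CPM in *K-Ctrl* replicate 4 and at 13.6 CPM in *K-Setd2KO* replicate 2, while the other tumors of each group reached at most 1.76 and 3.88 CPM. *Lox* was at 76.5 CPM in *K-Ctrl* replicate 1, against 38.5, 42.9 and 36.1 CPM in the other controls. The log2 ratio of *Bnip3* to *Bnip3l* was −2.15 in *K-Ctrl* replicate 4, where *Bnip3* was also lowest, and −1.34, −1.43 and −1.39 in the other controls.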

How the results depend on the processing

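Beside leaving out 1 tumor, 11 other settings were fitted, of which 10 held *Adm*, removed by the minimum of 10 counts in every tumor. *Ankrd37*, *Kdm3a* and *Ak4* kept direction and call in all 11. *Egln3* lost its call with the sex term and with the replicate number as a block (edgeR adjusted p 0.0892), *Plod1* with the sex term and with limma voom (adjusted p 0.0511), and *Bhlhe40* with the chromosome 6 shift removed. Listed genes called higher numbered 3 among the 22 tested genes that share no exon bases, where 4.97% of all tested genes were called higher. When 1 tumor was left out they numbered 2 to 6, with 2 without *K-Ctrl* replicate 3 (*Ankrd37* and *Kdm3a*). These fits called from 224 (without *K-Ctrl* replicate 3) to 856 (without *K-Setd2KO* replicate 2) of all genes higher. Listed genes called lower numbered 0 to 2 when 1 tumor was left out, 2 with DESeq2 or the length trend removed and 0 with limma voom or the sex term. Among all genes, lower calls numbered 539 to 1284 without 1 tumor, against 1155 in the main fit. They numbered 1094 with the length trend removed and 1077 with limma voom. The median log2 fold change was 0.30 with the sex term and 0.12 to 0.32 without 1 tumor. Of the HIF machinery, DESeq2 called 1 gene higher. Of the further targets it called 11 higher and 5 lower, higher calls numbered 4 with the replicate block, 5 with the sex term or no filter on low counts and 4 to 6 without 1 tumor, while 2 were lower with upper-quartile factors, total counts only or at least 10 counts in every tumor, and 1 to 3 without 1 tumor. Over all genes, DESeq2 called 3194 (1327 higher and 1867 lower) against 1897 (742 higher and 1155 lower). The sex term left 1237 (453 higher and 784 lower) and the fit without *K-Ctrl* replicate 3 left 763 (224 higher and 539 lower). Higher calls numbered 403 with the replicate block and 614 of 28425 genes without a filter. Lower calls numbered 1180 with upper-quartile factors and 1063 under the minimum of 10 counts. With total counts only, 581 of 1893 calls were higher, against 742 of 1897.

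Signs changed for no gene that was called. *Hif1a* was −0.027 with total counts only, −0.013 under a minimum of 10 counts per tumor, and −0.093 once sex was fitted. With limma voom *Adm* was 0.14 and *Mxi1* −0.0101. Without 1 tumor the ranges were −0.083 to 0.090 for *Hif1a*, −0.39 to 1.19 for *Hif3a*, −0.017 to 0.17 for *Higd1a*, −0.20 to 0.30 for *Vegfa*, −0.53 to 0.30 for *Adm*, −0.15 to 2.06 for *Stc2*, −0.26 to 0.24 for *Lox*, −0.22 to 0.24 for *Mxi1* and −0.17 to 0.073 for *Anxa2*. The log2 ratio differences ranged from −0.23 to 0.018 for *Egln2* to *Egln1*, −0.50 to 0.18 for *P4ha1* to *P4ha2* and 0.21 to 1.29 for *Car9* to *Car12*. The cause of these changes was not tested.

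Deviations of same-numbered tumors correlated at −0.074, −0.030, 0.19 and −0.023. The 0.19 of replicate 3 was the highest of all pairs of a control and a *K-Setd2KO* tumor. With 4 tumors in each group, these values cannot exclude a pairing by replicate number. As a block, the replicate numbers left 1341 calls over all genes, 4 listed genes higher and 1 lower, and turned *Vegfa* to −0.00031. The shallowest library, at 5806599 counts, limits what can be said of *Car12*, *Adm*, *Car9* and *Stc2* and of the called genes *Ak4* and *Egln3*, whose counts were also low.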
